A study of Mus musculus with 800 samples.

Results

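The 9 genes described here encode parts of the perineuronal net and of the loose matrix between brain cells: the lecticans Acan, Bcan, Ncan and Vcan, the link proteins Hapln1, Hapln2 and Hapln4, and the tenascins Tnr and Tnc. They are a list of gene names, put together with earlier results of these data known, and each of the 9 symbols matched 1 of the 32285 genes of the count table. Their levels were compared over 8 marker-based classes of nuclei, with Pvalb-like interneurons kept apart, and over the vector labels.

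A perineuronal net is a mesh of matrix that coats the cell body and proximal dendrites of some neurons, best known from parvalbumin interneurons of the cortex. Hyaluronan chains made at the cell surface carry lecticans, which are chondroitin sulfate proteoglycans, and a link protein locks each lectican onto hyaluronan. Tenascin-R crosslinks the lecticans at their other end. Neurons and glia both secrete these parts, so the cell that transcribes a gene need not be the cell that wears the net.

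The libraries hold 800 single nuclei, 40 for each of 20 vectors made from adeno-associated virus in the PHP.eB capsid, which crosses into the brain from blood. By every sample label the mice were C57Bl/6J and the tissue was anterior lateral motor cortex. The 20 vectors are AiE0078h, AiE0140h, AiE0387m, AiE0390m, AiE0391h, AiE0401h, AiE0410m, AiE0445h_3xC2, AiE0447h, AiE0450h, AiE0452h, AiE0475m, AiE0600m, AiE0682h, AiE0743m_3xC2, AiE0779m, DLX2.0, hI56i, hSyn1 and CMV. Each drives SYFP2 fused to histone H2B from its own enhancer or promoter, so a nucleus is in the set only if it carried enough reporter to be sorted. Per the series' design text the dose was 5e11 vector genomes per mouse in young adulthood and nuclei were sorted 3 to 4 weeks later. The labels name no animal, so nuclei of a vector may share an animal, each vector counts as 1 sample, and p-values measure only the spread between vectors.

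Of the 800 nuclei, 790 had at least 500 genes with a read and were classed: 81 Pvalb-like, 81 Sst-like, 16 Lamp5-like and 98 GABAergic-like without a subclass name, 107 glutamatergic-like, 165 striatal projection neuron-like, 117 astrocyte-like and 125 oligodendrocyte-like nuclei. The 165 striatal projection neuron-like nuclei go against the cortex label, since their leading genes include Rgs9, Pde10a and Gpr6. The series' design text names striatum and visual cortex among the regions sorted. These 165 nuclei came from 15 of the 20 vectors and from 38 of the 100 runs of 8 consecutive title numbers. Some results are given below also without those runs. The comparison of striatal projection neuron-like nuclei cannot be made without them. Other neurons in the same runs may also come from another region than the label says, which was not tested. Depth was similar over classes (median total 217810 to 294061 counts per nucleus), while the median number of genes detected ran from 958 in oligodendrocyte-like to 3316 in Pvalb-like nuclei. The 8 astrocyte markers summed to 12021 CPM (counts scaled to 1000000) in astrocyte-like nuclei and to at most 415 CPM in another class. The 8 oligodendrocyte markers summed to 40911 CPM in oligodendrocyte-like, 1896 CPM in astrocyte-like and 1514 CPM in striatal projection neuron-like nuclei. The 5 Pvalb markers summed to 1480 CPM in Pvalb-like, 965 CPM in unnamed GABAergic-like and 248 CPM in Sst-like nuclei. The unnamed class held more of other lists, 1237 CPM of the 5 Sst markers and 1153 CPM of the 4 Vip markers. The Vip sum was uneven, with a median of 49.5 CPM and a highest value of 11628 CPM over vectors. Leading genes of the clusters in this class include Crh, Pthlh, Lhx8 and Chat, so it is a mix.

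Each lectican gene lies beside a link protein gene in the mouse genome (mm10, GENCODE M21). Bcan (chr3:87987531-88000230, minus strand) and Hapln2 (chr3:88021750-88027583, minus strand) lie 21.5 kb apart and had the highest level per kilobase of exon of the 9 genes, Bcan in astrocyte-like and Hapln2 in oligodendrocyte-like nuclei. Acan stands beside Hapln3, Ncan beside Hapln4 and Vcan beside Hapln1. Their promoters are shown because these neighbours led in different glial classes, and that of Tnr, because it was read almost only in neuronal-like nuclei. Each line gives 250 bases before the RefSeq start site (GRCm38.p6), 5′ to 3′ on the gene's strand, and the start site of Bcan lies upstream of the gene's end in GENCODE. That of Hapln2 lies inside the GENCODE gene, so the last bases of its window, with the marked match, overlap the gene.
Bcan, chr3:88000357-88000606, minus strand: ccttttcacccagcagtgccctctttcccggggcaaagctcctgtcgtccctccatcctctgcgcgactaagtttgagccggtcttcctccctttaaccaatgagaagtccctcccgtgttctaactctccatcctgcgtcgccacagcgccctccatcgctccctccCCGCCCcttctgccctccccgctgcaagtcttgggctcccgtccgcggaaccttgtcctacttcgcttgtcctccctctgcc
Hapln2, chr3:88027512-88027761, minus strand: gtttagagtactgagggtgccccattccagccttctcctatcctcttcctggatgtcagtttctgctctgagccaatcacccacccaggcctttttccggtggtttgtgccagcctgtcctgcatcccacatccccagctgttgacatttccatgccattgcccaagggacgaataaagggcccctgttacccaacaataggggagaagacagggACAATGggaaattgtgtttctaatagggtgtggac
Tnr, chr1:159523519-159523768, plus strand: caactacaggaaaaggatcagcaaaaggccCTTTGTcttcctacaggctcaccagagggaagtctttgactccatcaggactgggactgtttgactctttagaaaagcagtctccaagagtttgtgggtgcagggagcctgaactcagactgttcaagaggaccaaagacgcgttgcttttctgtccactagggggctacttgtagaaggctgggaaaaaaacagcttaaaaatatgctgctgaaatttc
Capitals mark matches, on either strand, to the GC box GGGCGG (Bcan), to ACAATG (Hapln2) or to ACAAAG (Tnr), both Sox-type letters, and no match to the TATA box TATAAA or to TGACGTCA lay in these 3 windows. The E-box CANNTG, also sought, matched once in the Hapln2 window and in neither of the others, and stands in 66.2% of all promoters. The GC box stands in 32.7% of 32851 promoters of the same length and in 5 of the 8 members with a promoter entry, Acan, Bcan, Ncan, Vcan and Tnc. ACAATG stands in 10.7% and ACAAAG in 16.5% of all promoters, and each occurred in 1 member. The GC content was 62.0% in the Bcan, 52.4% in the Hapln2 and 46.8% in the Tnr window, against a median of 52.4% over all promoters. Such matches are common letters and say nothing of what binds there.

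**Figure D1:**
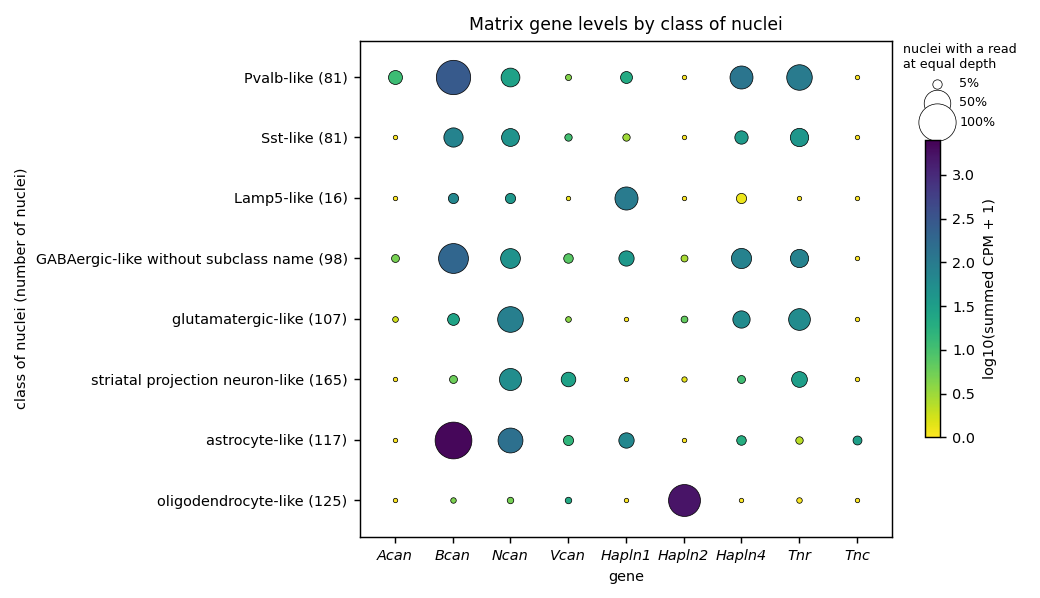
Level of the 9 matrix genes (columns) in 8 classes of nuclei (rows, number of nuclei in brackets). Colour is log10(summed CPM + 1) and dot area the share of nuclei with a read after thinning each nucleus to 140000 counts; Bcan leads in astrocyte-like nuclei at 2182 CPM and Hapln2 in oligodendrocyte-like nuclei at 1642 CPM.

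Brevican and the link protein Hapln2 were abundant, each in 1 glial class, and no other member passed 144 CPM in any class. Levels are CPM of the counts summed over a class, not scaled by gene length unless said, with 95% Poisson intervals that cover counting error only, since these reads carry no molecule barcodes. In bulk sums, fewer nuclei of a type that express a gene and less RNA per nucleus cannot be told apart, so shares of nuclei with a read are given beside the sums.

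Bcan encodes brevican, the smallest lectican and a common part of nets around cortical interneurons. It reached 2182 CPM in astrocyte-like nuclei (95% interval 2166 to 2197), with a read in 115 of 117 nuclei, and these nuclei held 84.4% of all its reads. Pvalb-like nuclei followed at 285 CPM (278 to 292) and GABAergic-like nuclei without a subclass name at 196 CPM (191 to 202). Sst-like nuclei had 74.3 CPM, glutamatergic-like 25.4 CPM, striatal projection neuron-like 4.86 CPM and oligodendrocyte-like nuclei 3.66 CPM. All 247 reads of Lamp5-like nuclei (65.2 CPM) came from 1 of 16 nuclei. At 140000 counts per nucleus, Bcan was read in 97.4% of astrocyte-like, 84.6% of Pvalb-like, 63.5% of unnamed GABAergic-like, 25.6% of Sst-like, 8.74% of glutamatergic-like and 3.21% of striatal projection neuron-like nuclei. In oligodendrocyte-like nuclei 1 of 122 had a read.

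Over vectors with at least 3 nuclei of the class, Bcan averaged 2270 ± 933 CPM in astrocyte-like nuclei (SD, n = 9), 286 ± 112 in Pvalb-like (n = 13), 214 ± 111 in unnamed GABAergic-like (n = 13), 63.6 ± 74.8 in Sst-like (n = 10) and 16.4 ± 20.8 in glutamatergic-like nuclei (n = 12). The lowest astrocyte-like sum, 459 CPM, lay below the highest Pvalb-like one, 494 CPM, so even these neighbours in the order touched. The ranges of Pvalb-like and unnamed GABAergic-like nuclei overlapped almost wholly (130 to 494 against 14.9 to 428 CPM). Every Pvalb-like sum was above 0, whereas 3 of 10 Sst-like and 5 of 12 glutamatergic-like sums were at 0. Among single Pvalb-like nuclei the median was 166 CPM and the highest 1409 CPM.

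Ncan encodes neurocan, a lectican best known from the developing brain, and was the most evenly spread member. It stood at 144 CPM in astrocyte-like nuclei (140 to 148), 88.0 CPM in glutamatergic-like nuclei (84.5 to 91.5) and 55.2 CPM in striatal projection neuron-like nuclei (52.9 to 57.5). Sums of 27.8 CPM in Pvalb-like, 44.2 CPM in Sst-like and 47.6 CPM in unnamed GABAergic-like nuclei were lower, and oligodendrocyte-like nuclei had 4.196 CPM. Over vectors, 117 ± 96.3 CPM in astrocyte-like (n = 9), 69.6 ± 53.9 in glutamatergic-like (n = 12) and 63.3 ± 57.4 in striatal projection neuron-like nuclei (SD, n = 14) overlapped widely. Of the Sst-like reads, 43.8% came from 1 nucleus.

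Vcan encodes versican, the largest lectican and in the brain also a product of oligodendrocyte precursors. Its highest sum was 27.6 CPM in striatal projection neuron-like nuclei, from 24 of 165 nuclei. The next, 21.3 CPM in oligodendrocyte-like nuclei, came from 2 of 125 nuclei, 1 of which held 89.8% of the reads. In all the classes together 43 nuclei had a Vcan read. Of 5 precursor markers, Pdgfra, Gpr17 and C1ql1 were at 0 in the oligodendrocyte-like class, and the list summed to 38.9 CPM, nearly all of it Matn4 (38.4 CPM).

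Acan encodes aggrecan, the lectican most used as a marker of mature nets. Only 14 of 800 nuclei held an Acan read, 349 reads in all: 10 Pvalb-like, 3 unnamed GABAergic-like and 1 glutamatergic-like nucleus. Pvalb-like nuclei stood at 10.6 CPM (9.28 to 12.1), unnamed GABAergic-like at 3.96 CPM and glutamatergic-like at 0.746 CPM. No read fell in Sst-like, Lamp5-like, striatal projection neuron-like, astrocyte-like or oligodendrocyte-like nuclei, where 3 counts would be at most 0.135 CPM outside the small Lamp5-like class (0.792 CPM). Of the 10 Pvalb-like nuclei with Acan, 9 also had a Bcan read, 5 a Tnr read and 4 a Hapln4 read. These shares are close to those of all 81 Pvalb-like nuclei, of which 68 had Bcan, 39 Tnr and 32 Hapln4. Acan and Hapln3 end 2 bases apart on opposite strands, and a protocol that keeps no strand cannot tell reads at those ends apart.

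Hapln2, also called Bral1, encodes a link protein known from the matrix at nodes of Ranvier of myelinated axons. It stood at 1642 CPM in oligodendrocyte-like nuclei (1628 to 1655), with a read in 91 of 125 nuclei, and these nuclei held 98.6% of its reads. Over 10 vectors it averaged 1458 ± 686 CPM (SD), from 197 to 2261 CPM, and no sum was at 0. The highest sum elsewhere was 5.51 CPM in glutamatergic-like nuclei, from 2 of 107 nuclei, and astrocyte-like, Pvalb-like, Sst-like and Lamp5-like nuclei had no read. The level was alike in oligodendrocyte-like nuclei with at least 1000 genes (1523 CPM, 50 nuclei) and in those with fewer (1731 CPM, 75 nuclei).

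Hapln4, also called Bral2, encodes the link protein that partners brevican around neurons. Its order ran through the neurons: 119 CPM in Pvalb-like nuclei (114 to 124), 77.1 in unnamed GABAergic-like, 58.0 in glutamatergic-like, 34.9 in Sst-like and 10.4 in striatal projection neuron-like nuclei. Over vectors these were 144 ± 119 (n = 13), 53.8 ± 51.2 (n = 13), 50.4 ± 49.0 (n = 12), 22.1 ± 30.3 (n = 10) and 8.42 ± 14.8 CPM (SD, n = 14), and each neighbouring pair overlapped. Astrocyte-like nuclei had 18.5 CPM from 6 of 117 nuclei, 3 of which held 96.0% of the reads, and oligodendrocyte-like nuclei had no read.

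Hapln1, also called Crtl1, encodes the link protein most closely tied to net formation in mice. It was read in interneuron classes and in astrocyte-like nuclei and in no others. Lamp5-like nuclei had 98.2 CPM (88.5 to 109; 6 of 16 nuclei), astrocyte-like 66.4 CPM (20 of 117), unnamed GABAergic-like 37.3 CPM (16 of 98), Pvalb-like 20.3 CPM (9 of 81) and Sst-like nuclei 2.07 CPM (2 of 81). None of the 107 glutamatergic-like, 165 striatal projection neuron-like and 125 oligodendrocyte-like nuclei held a read. Within the unnamed class, the 22 nuclei with a read of Pthlh stood at 114 CPM, with Hapln1 in 10 of them.

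Tnr encodes tenascin-R, the crosslinker of lecticans in nets. It stood at 99.4 CPM in Pvalb-like nuclei (95.2 to 104), 79.8 in unnamed GABAergic-like, 58.1 in glutamatergic-like, 39.6 in Sst-like and 30.8 in striatal projection neuron-like nuclei. In astrocyte-like nuclei 3 of 117 had a read (1.23 CPM), in oligodendrocyte-like nuclei 1 of 125 (0.0845 CPM), and in Lamp5-like nuclei none of 16. Over vectors the neuronal sums overlapped, from 122 ± 90.5 CPM in Pvalb-like (n = 13) to 30.3 ± 33.2 in Sst-like (n = 10) and 38.4 ± 39.6 in striatal projection neuron-like nuclei (SD, n = 14). Tnc, which encodes tenascin-C, a matrix protein of developing and injured tissue, was read in 5 astrocyte-like nuclei only (30.2 CPM), and 1 of them held 61.4% of its reads.

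Per kilobase of exon, brevican still led the members in astrocyte-like (537 CPM per kb), Pvalb-like (70.1) and Sst-like nuclei (18.3), and Hapln2 in oligodendrocyte-like nuclei (692). Per kilobase, Hapln4 came next to Bcan in Pvalb-like nuclei (30.3 CPM per kb), ahead of Tnr (7.73). In glutamatergic-like nuclei Hapln4 (14.8) and Ncan (12.2) stood above Bcan (6.24), and in striatal projection neuron-like nuclei Ncan led at 7.67 CPM per kb. The exon lengths are those of the annotation, and intron reads, which nuclei hold, are not scaled by them.

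Of the 81 Pvalb-like nuclei 79 held at least 1 member, and 16 held exactly 1. In this class 72 of 81 nuclei held a lectican read and 36 a link protein read. Bcan and Tnr were both read in 35 nuclei, Bcan and Hapln4 in 26, and Bcan, Hapln4 and Tnr in 11. Counted singly, Bcan was read in 68, Tnr in 39 and Hapln4 in 32 of the 81. Whether members were read together more often than these shares give was not tested. Of the 81 Sst-like nuclei 35 held no member at all, and in none of the 81 were Bcan, Hapln4 and Tnr all read. These genes were all read in 6 of 98 unnamed GABAergic-like, 5 of 107 glutamatergic-like and 2 of 117 astrocyte-like nuclei. No Lamp5-like, striatal projection neuron-like or oligodendrocyte-like nucleus held all of them. In astrocyte-like nuclei Bcan was read in 115, Ncan in 56 and both in 55 of 117. Of the 74 Pvalb-like nuclei with a Pvalb read, 65 had Bcan (289 CPM). The 38 unnamed GABAergic-like nuclei with a Pvalb read stood at 241 CPM of Bcan, with a read in 29, and at 70.9 CPM of Hapln1.

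The question for Pvalb-like against other GABAergic-like nuclei was whether the interneurons best known for nets carried more net transcripts than other interneurons of the same vectors. The other nuclei include the unnamed class, in which 38 of 98 nuclei had a Pvalb read. Bcan stood at 241 CPM in those 38 and at 166 CPM in the 60 without a Pvalb read. In the 13 vectors that had 3 or more nuclei of both kinds, no tested member passed an adjusted p of 0.05 in edgeR's quasi-likelihood test. Bcan, Hapln4 and Tnr had higher and Ncan and Hapln1 lower means in Pvalb-like nuclei, each with wide spread. Of all genes tested, 0.617% passed, 49 of 7939 (0.139% higher and 0.479% lower), and 0 of the 5 members tested did (1 at an unadjusted p under 0.05). Acan, Vcan, Hapln2 and Tnc did not pass the filter on low counts.

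Bcan had 130, 267 and 494 CPM (lowest, median and highest of 13 vectors) in Pvalb-like nuclei, against 0, 124 and 309 CPM in other GABAergic-like nuclei. It was higher in Pvalb-like nuclei in 12 of 13 vectors, although the ranges overlapped (log2 fold change 1.23, SE 0.51, edgeR adjusted p = 0.595). Taken by itself, the exact sign-flip permutation test over the 13 vectors gave a two-sided p = 0.000732 for Bcan, unadjusted. DESeq2 called Bcan (log2 fold change 1.31, adjusted p = 0.0216) and Tnr (2.11, adjusted p = 0.0358), in a setting that called 723 of all genes. Over the 13 fits that left out 1 vector, the edgeR adjusted p for Bcan ran from 0.452 to 0.828.

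**Figure D2:**
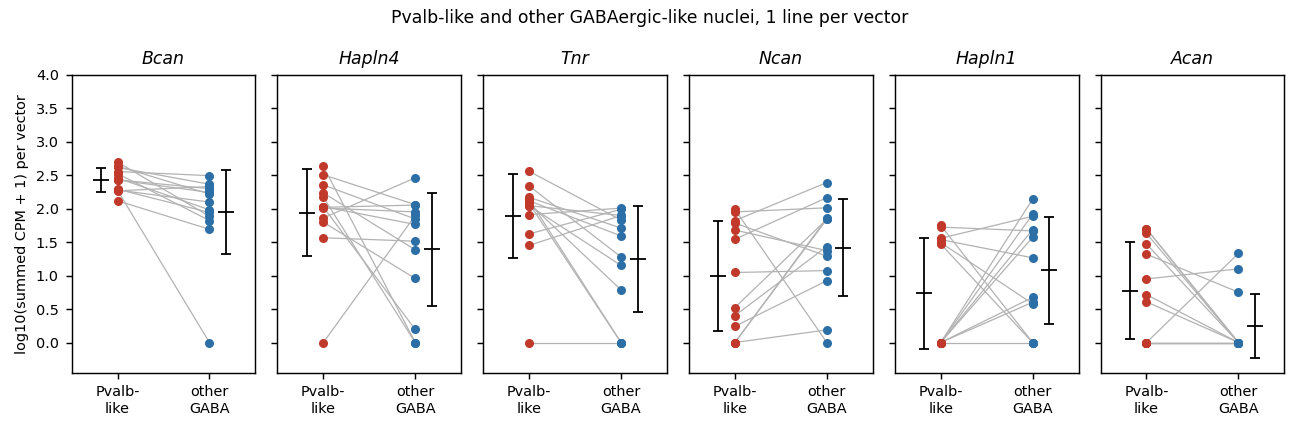
Level per vector, log10(summed CPM + 1), of 6 matrix genes in Pvalb-like (left, red) and other GABAergic-like nuclei (right, blue); each line is 1 of 13 vectors and black bars give the mean ± SD of the plotted values. Bcan lies higher on the left in 12 of 13 vectors.

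Hapln4 had 0, 104 and 428 CPM (lowest, median, highest) in Pvalb-like nuclei, against 0, 56.9 and 286 CPM in other GABAergic-like nuclei, and was higher in 10 of 13 vectors (log2 fold change 1.56, SE 1.13, edgeR adjusted p = 0.946). Tnr had 0, 119 and 359 CPM in Pvalb-like nuclei, against 0, 38.1 and 100.3 CPM, and was higher in 9 and lower in 3 vectors (2.06, SE 1.10, edgeR adjusted p = 0.808; exact sign-flip p = 0.0142, unadjusted). Ncan was lower in 10 of 13 vectors, with a mean of 31.1 ± 36.1 CPM in Pvalb-like and 60.2 ± 70.3 CPM in other GABAergic-like nuclei (SD; log2 fold change -2.07, SE 1.48, edgeR adjusted p = 0.946). Hapln1 averaged 18.004 ± 21.6 CPM in Pvalb-like and 34.6 ± 42.3 CPM in other GABAergic-like nuclei (-2.17, SE 2.25, edgeR adjusted p = 0.984). Acan averaged 15.6 ± 19.6 CPM in Pvalb-like and 2.81 ± 6.25 CPM in other GABAergic-like nuclei, higher in 7, lower in 2 and tied at 0 in 4 vectors (exact sign-flip p = 0.0664, unadjusted; 9 such tests were run per comparison).

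Levels of astrocyte markers are given beside brevican, since astrocyte-like nuclei held most of its reads. The 8 markers summed to 24.999 CPM in Pvalb-like nuclei, with Gjb6 and Aldh1l1 at 0 (0 to 159 CPM over vectors), and to 122 CPM in unnamed GABAergic-like nuclei (0 to 295), against 12021 CPM in astrocyte-like nuclei. In nuclei with less than 100 CPM of these markers Bcan stood at 276 CPM in 75 Pvalb-like nuclei and at 136 CPM in 156 other GABAergic-like nuclei, close to 285 and 135 CPM over all nuclei. The library names begin with 1 of 4 series numbers, and the labels do not say what these stand for. Within library series S40324 Bcan was at 247 CPM in Pvalb-like and 143 CPM in unnamed GABAergic-like nuclei, and within series S40326 at 288 and 213 CPM. In runs without a striatal projection neuron-like nucleus it was at 275 CPM in Pvalb-like, 162 in unnamed GABAergic-like and 99.8 in Sst-like nuclei.

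Among 78 other genes of matrix synthesis, sulfation, breakdown and reception, 28 were tested between Pvalb-like and other GABAergic-like nuclei and 2 passed. Cemip, a hyaluronan-degrading protein, was higher in Pvalb-like nuclei (254 ± 193 against 45.4 ± 82.6 CPM, SD; log2 fold change 3.65, SE 0.79, edgeR adjusted p = 0.0193; higher in 12 of 13 vectors). Reln, which encodes the secreted protein reelin, was lower (15.4 ± 25.2 against 316 ± 374 CPM; -7.06, SE 1.70, edgeR adjusted p = 0.0492; lower in 11 of 13). The median log2 fold change was -0.29 over the 28 genes and -0.36 over all genes tested.

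GABAergic-like nuclei were set against glutamatergic-like nuclei of the same 12 vectors, inhibitory against excitatory neurons. Brevican was higher in GABAergic-like nuclei, and no difference was called for Ncan, Hapln4 or Tnr. Of all genes tested 3.13% passed (280 of 8943, 1.79% higher and 1.34% lower), and of the 4 members tested 1 did. Bcan had 87.9, 191 and 322 CPM (lowest, median, highest) in GABAergic-like nuclei, against 0, 3.52 and 51.3 CPM in glutamatergic-like nuclei, without overlap (log2 fold change 5.36, SE 1.21, edgeR adjusted p = 0.00961; higher in 12 of 12 vectors). The call was lost with at least 5 nuclei per sum (7 vectors, 3.99, adjusted p = 0.105), with runs of 8 as units (3.93, adjusted p = 0.0799) and without runs holding a striatal projection neuron-like nucleus (5 vectors, 4.56, adjusted p = 0.744). Leaving out 1 vector gave an adjusted p between 0.00426 and 0.0242.

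Hapln1 was left out by the filter on low counts. All 12 glutamatergic-like sums were at 0, while GABAergic-like sums averaged 24.1 ± 24.9 CPM (SD) and 10 of 12 were above 0. Set against a floor of 3 counts over all glutamatergic-like sums, its level was 176-fold higher in GABAergic-like nuclei. With no filter edgeR called it too. All 4152 Hapln1 reads came from 53 nuclei, so 1 nucleus can exceed 3 counts and such a ratio is no lower bound. Ncan averaged 46.0 ± 51.0 CPM in GABAergic-like and 69.6 ± 53.9 CPM in glutamatergic-like nuclei (log2 fold change -0.83, SE 1.06, edgeR adjusted p = 0.874). Hapln4, with 56.2 ± 51.1 CPM in GABAergic-like and 50.4 ± 49.0 CPM in glutamatergic-like nuclei, and Tnr, with 54.9 ± 43.4 and 47.7 ± 32.96 CPM, had fitted changes near 0 (-0.05, SE 1.56, and -0.02, SE 1.23). Their sign turned in 14 and 13 of 23 alternatives, so no direction is given for them.

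**Figure D3:**
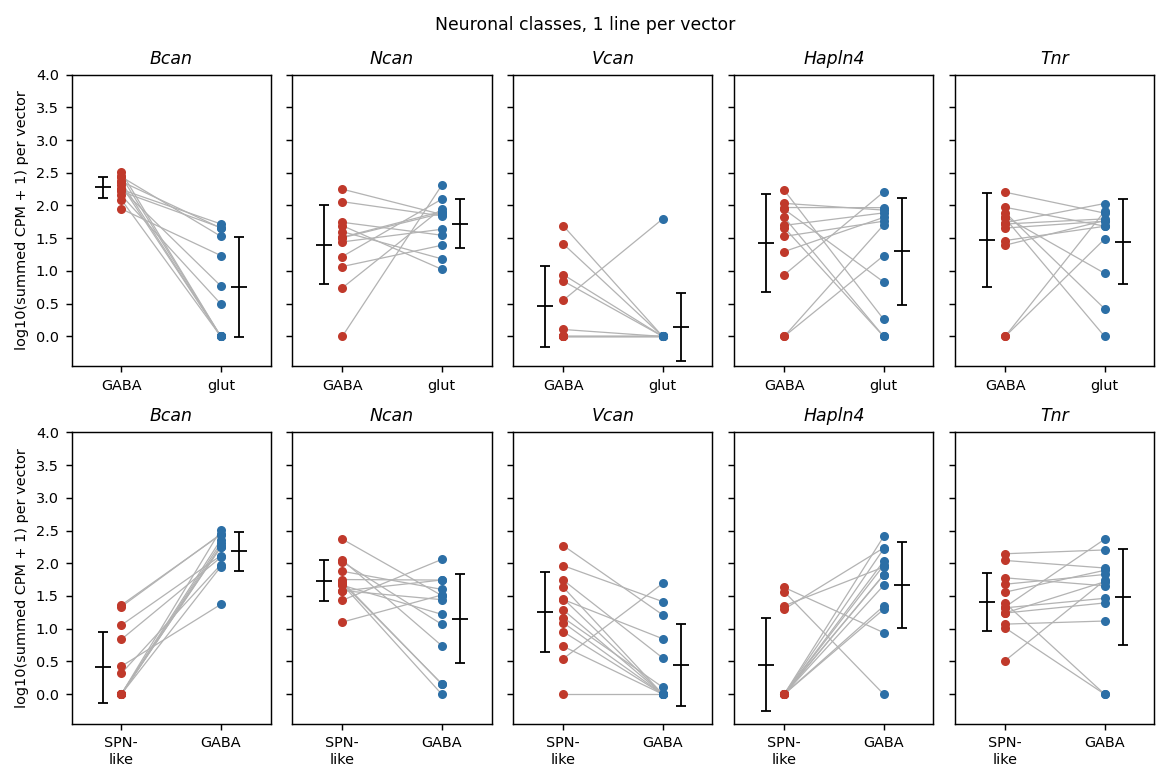
Level per vector, log10(summed CPM + 1), of 5 matrix genes. Top row, GABAergic-like (GABA, left) and glutamatergic-like nuclei (glut, right) in 12 vectors; bottom row, striatal projection neuron-like (SPN-like, left) and GABAergic-like nuclei (GABA, right) in 13 vectors. Lines join the sums of 1 vector, bars give the mean ± SD of the plotted values, and Bcan is the only gene whose groups do not overlap, in both rows.

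Of the 78 other matrix genes 38 were tested here, and 3 rose and 4 fell. Ptprz1, a receptor phosphatase that carries chondroitin sulfate, was higher in GABAergic-like nuclei (67.8 ± 35.7 against 2.73 ± 8.72 CPM, SD; log2 fold change 8.89, SE 1.87, edgeR adjusted p = 0.00529), as were Reln (119 ± 121 against 25.1 ± 65.2 CPM; adjusted p = 0.0444) and Sparcl1, the secreted protein hevin (767 ± 203 against 211 ± 163 CPM; adjusted p = 0.0131). Csgalnact1, which starts chondroitin sulfate chains, was lower (6.56 ± 10.5 against 118 ± 107 CPM; -6.74, SE 1.82, edgeR adjusted p = 0.0372). Lower too were the Nogo receptor family member Rtn4rl2 (adjusted p = 0.0298), the neuronal pentraxin Nptx1 (21.4 ± 24.8 against 271 ± 204 CPM; adjusted p = 0.0218) and the receptor phosphatase Ptprd (448 ± 170 against 1789 ± 536 CPM; adjusted p = 1.52e-06). The median log2 fold change was 0.82 over these 38 genes and 0.40 over all genes.

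Striatal projection neuron-like nuclei were set against GABAergic-like nuclei of the same 13 vectors, both of them GABA-making. The former lie only in the 38 runs that hold them, while GABAergic-like nuclei were taken from any run. Class and region or run therefore cannot be told apart here. The GABAergic-like sums also serve in the comparison with glutamatergic-like nuclei, so the values of these comparisons share samples. Brevican and its link protein Hapln4 were lower in striatal projection neuron-like nuclei and Vcan was higher. Of all genes tested 7.51% passed (687 of 9142, 3.34% higher and 4.18% lower), and of the 5 members tested 3 did. Fitted fold changes of genes with many sums at 0 depend on the model's prior count, so the levels beside them are the firmer measure of size.

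Bcan had 0, 0 and 21.9 CPM (lowest, median, highest) in striatal projection neuron-like nuclei, against 22.6, 179 and 322 CPM in GABAergic-like nuclei, without overlap and lower in 13 of 13 vectors (log2 fold change -7.18, SE 1.22, edgeR adjusted p = 0.000251). It was called in all 22 alternative fits, with adjusted p up to 0.00876. Hapln4 averaged 9.07 ± 15.2 CPM in striatal projection neuron-like and 84.6 ± 74.9 CPM in GABAergic-like nuclei (SD), at 0 in 9 of 13 and 1 of 13 sums and lower in 11 vectors (-7.59, SE 2.02, edgeR adjusted p = 0.0190). Vcan averaged 37.4 ± 51.2 CPM in striatal projection neuron-like and 7.48 ± 14.4 CPM in GABAergic-like nuclei and was higher in 11 vectors, lower in 1 (5.06, SE 1.52, edgeR adjusted p = 0.0419). The Vcan call was lost in 9 of 13 fits that left out 1 vector (AiE0078h, AiE0140h, AiE0387m, AiE0391h, AiE0445h_3xC2, AiE0682h, AiE0743m_3xC2, AiE0779m or hI56i), with adjusted p from 0.0579 to 0.0879, and 1 nucleus held 28.7% of the striatal projection neuron-like reads. Without the vector as a block Bcan alone passed (Hapln4 adjusted p = 0.135, Vcan adjusted p = 0.313), as in library series S40326 alone (Hapln4 adjusted p = 0.148, Vcan adjusted p = 0.0712).

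Ncan had 11.6, 49.3 and 233 CPM in striatal projection neuron-like nuclei, against 0, 26.8 and 113 CPM in GABAergic-like nuclei, higher in 10 of 13 vectors (log2 fold change 2.08, SE 1.16, edgeR adjusted p = 0.381), and DESeq2 called it (adjusted p = 0.0117). Tnr averaged 39.1 ± 41.2 CPM in striatal projection neuron-like and 63.9 ± 65.9 CPM in GABAergic-like nuclei (-0.26, SE 0.99, edgeR adjusted p = 0.948). Hapln1 was at 0 in all 13 striatal projection neuron-like sums and averaged 27.7 ± 25.2 CPM in GABAergic-like nuclei, 289-fold lower by the 3-count floor. Acan was at 0 against 5.12 ± 8.18 CPM, 54.8-fold lower by that floor. These ratios of pooled reads are no lower bounds, since 1 nucleus can exceed 3 counts. For Acan, all 349 reads came from 14 nuclei. Neither Hapln1 nor Acan passed the filter on low counts. Among the striatal projection neuron-like nuclei, 81 with reads of Drd1 and of no Drd2-type gene stood at 52.0 CPM of Ncan and 26.9 CPM of Vcan. The 62 nuclei of the opposite kind had 57.4 CPM of Ncan and 26.2 CPM of Vcan.

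Of 35 other matrix genes tested, 2 were higher in striatal projection neuron-like nuclei, Chst15, a chondroitin sulfate sulfotransferase (103 ± 60.0 against 4.87 ± 10.7 CPM, SD; log2 fold change 8.27, SE 1.64, edgeR adjusted p = 0.00151; higher in 12 of 13 vectors), and the integrin Itga9, which binds tenascin-C (44.2 ± 45.8 against 3.04 ± 5.33 CPM; edgeR adjusted p = 0.0113). Lower were 6, among them Cemip (0.974 ± 2.41 against 81.8 ± 72.9 CPM; adjusted p = 0.000444), Crtac1 (20.5 ± 36.5 against 222 ± 147 CPM; adjusted p = 0.00474), Sparcl1 (41.9 ± 73.0 against 703 ± 162 CPM; adjusted p = 0.000107) and Lgi2 (15.4 ± 33.97 against 98.3 ± 52.4 CPM; adjusted p = 0.0202). The median log2 fold change was -1.38 over the 35 genes and -0.41 over all genes. Oligodendrocyte markers summed to 1514 CPM in striatal projection neuron-like nuclei, with Mog and Opalin at 0, and their part in these differences was not tested.

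Astrocyte-like nuclei were set against neuronal-like nuclei of the same 9 vectors. The mix of neurons differed between vectors, with 19 glutamatergic-like and 3 GABAergic-like nuclei in CMV and 8 GABAergic-like nuclei alone in AiE0390m. Over the neuronal classes Bcan ran from 4.86 to 285 CPM, so neuronal-like sums depend on that mix. Brevican was higher and Tnr and Hapln4 were lower in astrocyte-like nuclei, while Ncan, Vcan and Hapln1 were not called. Of all genes tested 17.2% passed (1747 of 10163, 3.89% higher and 13.3% lower), and of the 6 members tested 3 did. Over all genes the median change was -1.78 (log2), and astrocyte-like nuclei had reads of fewer genes (a median of 1407 per nucleus), and a decrease of a member is to be read beside that.

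Bcan had 459, 2066 and 3526 CPM (lowest, median, highest) in astrocyte-like nuclei, against 38.4, 87.2 and 173 CPM in neuronal-like nuclei, without overlap and higher in 9 of 9 vectors (log2 fold change 4.74, SE 0.40, edgeR adjusted p = 3.11e-08). It was called in all 20 alternative fits, also within library series S40324 and S40326 alone. Tnr had 0, 0 and 8.11 CPM in astrocyte-like nuclei, against 25.9, 84.0 and 145 CPM in neuronal-like nuclei, without overlap and lower in 9 of 9 vectors (-8.91, SE 1.83, edgeR adjusted p = 0.00195). Hapln4 averaged 10.5 ± 19.96 CPM in astrocyte-like and 83.8 ± 79.8 CPM in neuronal-like nuclei (SD), lower in 9 of 9 vectors with overlapping ranges (-7.62, SE 2.21, edgeR adjusted p = 0.0200). Astrocyte-like nuclei also held 1896 CPM of the 8 oligodendrocyte markers, against 40.4 to 1514 CPM in the neuronal classes, and 292 CPM of 5 endothelial markers (0 to 4553 CPM over vectors), whose part in these differences was not tested. The Hapln4 call was lost without AiE0600m (adjusted p = 0.0512), without AiE0743m_3xC2 (0.0526) and without the vector block (0.353). Within series S40324 (5 vectors) and S40326 (4 vectors) neither Tnr (adjusted p = 0.0884 and 0.0924) nor Hapln4 (0.299 and 0.0924) passed.

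**Figure D4:**
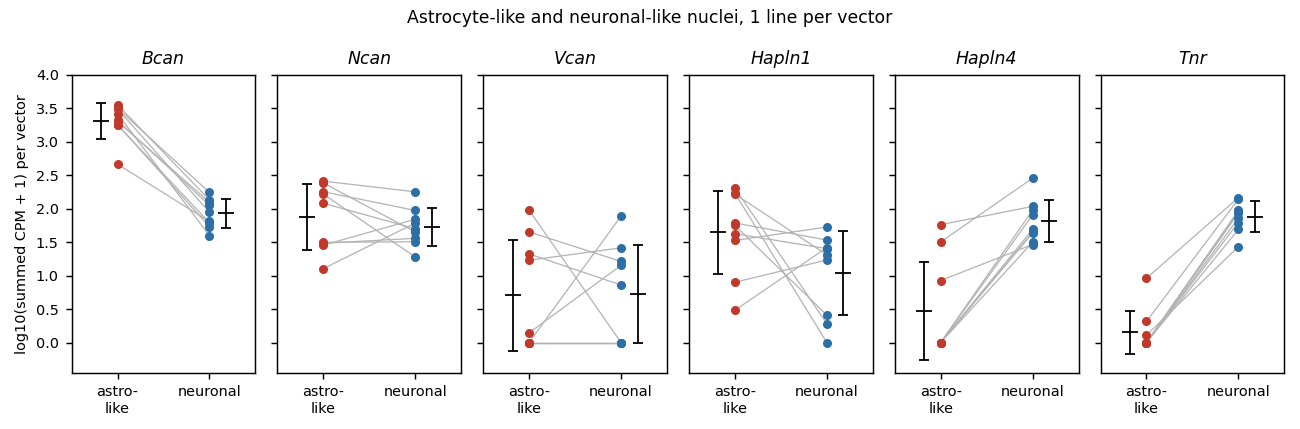
Level per vector, log10(summed CPM + 1), of 6 matrix genes in astrocyte-like (left, red) and neuronal-like nuclei (right, blue) of 9 vectors; lines join the sums of 1 vector and bars give the mean ± SD of the plotted values. Bcan lies higher and Tnr lower in astrocyte-like nuclei in every vector.

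Ncan averaged 117 ± 96.3 CPM in astrocyte-like and 63.7 ± 47.8 CPM in neuronal-like nuclei and was higher in 5 and lower in 4 of 9 vectors (log2 fold change 0.66, SE 0.90, edgeR adjusted p = 0.651). It stood at 182 CPM in astrocyte-like nuclei of series S40324 and at 53.5 CPM in those of series S40326. Hapln1 averaged 81.1 ± 75.5 CPM in astrocyte-like and 19.1 ± 17.1 CPM in neuronal-like nuclei, higher in 6 of 9 vectors (2.07, SE 1.74, edgeR adjusted p = 0.443). Vcan averaged 19.3 ± 31.5 CPM in astrocyte-like and 15.1 ± 24.5 CPM in neuronal-like nuclei (0.09, SE 2.24, edgeR adjusted p = 0.983). Tnc had 27.2 ± 52.6 CPM in astrocyte-like nuclei, with 3 of 9 sums above 0, against 0 in all neuronal-like sums, and did not pass the filter. Acan was at 0 in all 9 astrocyte-like sums, against 3.96 ± 5.08 CPM in neuronal-like nuclei.

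Of 37 other matrix genes tested, 6 were higher and 11 lower in astrocyte-like nuclei. Among the higher were Sparc (174 ± 200 against 3.57 ± 8.20 CPM, SD; log2 fold change 10.02, SE 1.87, edgeR adjusted p = 0.000954), the metalloprotease inhibitors Timp3 (144 ± 126 against 7.71 ± 13.6 CPM; adjusted p = 0.00463) and Timp4 (305 ± 153 against 27.8 ± 19.1 CPM; adjusted p = 0.00107), and Ptprz1 (1436 ± 475 against 56.2 ± 31.7 CPM; adjusted p = 3.47e-06). Lower were Crtac1 and Cemip, both at 0 in all 9 astrocyte-like sums, and the metalloproteases Mmp16 (6.65 ± 17.9 against 79.6 ± 39.01 CPM; adjusted p = 0.00385) and Mmp17 (3.58 ± 9.98 against 73.1 ± 52.4 CPM; adjusted p = 0.00810). The median log2 fold change of the 37 genes was -2.11.

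Oligodendrocyte-like and astrocyte-like nuclei could be paired in 3 vectors only, AiE0391h, AiE0445h_3xC2 and DLX2.0. Hapln2 had 391, 1327 and 197 CPM in their oligodendrocyte-like nuclei, against 0 in each astrocyte-like sum (edgeR adjusted p = 0.128). That is 2042-fold higher by the 3-count floor over the group, a ratio of pooled reads and no lower bound. Bcan was at 0 in each oligodendrocyte-like sum, against 1792, 3066 and 2066 CPM in astrocyte-like nuclei, 3316-fold lower by that floor (edgeR adjusted p = 2.10e-07). Ncan was likewise at 0, against 240, 163 and 119 CPM, 299-fold lower by that floor (edgeR adjusted p = 0.419). Of all genes tested 2.14% passed (97 of 4537), and of the 3 members tested 1 did, whereas DESeq2 called all 3. Each of these 3 was at 0 in 1 class in every vector and passed the filter on low counts through the other class only. With 3 vectors an exact sign-flip test cannot go below p = 0.25.

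Oligodendrocyte-like nuclei were therefore also set against neuronal-like nuclei, in 10 vectors, a comparison added after the data had been seen. Here too the mix of neurons differed, with 22 striatal projection neuron-like nuclei in AiE0779m and 0 in AiE0452h. Hapln2 was higher and Bcan, Ncan, Vcan, Hapln4 and Tnr were lower in oligodendrocyte-like nuclei, 6 of the 6 members tested. That count is no result by itself, since such members passed the filter on low counts mainly through the class where they were read. Oligodendrocyte-like sums were at 0 in 10 of 10 vectors for Hapln4, 9 for Bcan and Tnr, 8 for Vcan and 7 for Ncan. Neuronal-like sums of Hapln2 were at 0 in 8 of 10. This has to be read against the background, since 46.5% of all genes tested passed (4001 of 8596), 2.42% higher and 44.1% lower, with a median change of -4.95 (log2) over all genes. A decrease, as of 5 members, was thus common among all genes, and an increase was rare.

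Hapln2 had 197, 1766 and 2261 CPM (lowest, median, highest) in oligodendrocyte-like nuclei, against 0, 0 and 2.62 CPM in neuronal-like nuclei, without overlap and higher in 10 of 10 vectors (log2 fold change 13.37, SE 1.27, edgeR adjusted p = 2.70e-10). It passed in every alternative fit, also within series S40324 and S40326 (4 vectors each), where it was the only member called. Hapln4 was at 0 in all 10 oligodendrocyte-like sums, against 40.1 ± 24.97 CPM in neuronal-like nuclei (edgeR adjusted p = 0.000137). That is 431-fold lower by the 3-count floor, a ratio of pooled reads and no lower bound. Tnr had a read in 1 of 10 oligodendrocyte-like sums, against 52.2 ± 40.6 CPM in neuronal-like nuclei (edgeR adjusted p = 9.87e-05). Bcan averaged 6.16 ± 19.5 CPM in oligodendrocyte-like and 78.1 ± 50.6 CPM in neuronal-like nuclei (edgeR adjusted p = 0.000324), Ncan 7.04 ± 20.5 and 45.5 ± 11.8 CPM (0.00107) and Vcan 16.2 ± 47.2 and 17.5 ± 22.7 CPM (0.0108). For Vcan the means are alike, and 1 nucleus held 89.8% of the oligodendrocyte-like reads while 8 of 10 sums were at 0. Without the vector block Hapln2, Hapln4 and Tnr passed and Bcan (adjusted p = 0.123), Ncan (0.191) and Vcan (0.938) did not.

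Of 29 other matrix genes tested in that comparison 3 were higher, Tnfaip6, a hyaluronan-binding protein (1322 ± 1016 against 2.74 ± 4.95 CPM, SD; log2 fold change 12.01, SE 1.53, edgeR adjusted p = 1.86e-07), the lectican-cleaving protease Adamts4 (177 ± 146 against 0.651 ± 2.06 CPM; edgeR adjusted p = 0.000129) and Ptprd (3044 ± 624.7 against 604 ± 241 CPM; edgeR adjusted p = 0.00220). Lower were 20 of the 29, among them Reln, the chondroitin chain enzyme Chpf, Sema3a and Mmp16. Tnfaip6 was also the 1 matrix gene called higher against astrocyte-like nuclei in the 3 shared vectors (2567 ± 975 against 0.564 ± 0.978 CPM; edgeR adjusted p = 0.000923). There Ptprz1, Cspg5 and Sparcl1 were lower.

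Over the 40 nuclei of each vector, Bcan and Hapln2 were highest in the vectors with the most astrocyte-like and the most oligodendrocyte-like nuclei, although below these the order of levels and of nuclei differed. No test was run between vectors, each of which is 1 sample. Bcan was highest in AiE0390m, at 1634 CPM (95% interval 1610 to 1659), where 31 of 40 nuclei were astrocyte-like. AiE0743m_3xC2 followed at 1005 CPM with 9 astrocyte-like nuclei, AiE0391h at 938 CPM with 17, AiE0450h at 827 CPM with 12 and CMV at 819 CPM with 16. Bcan also stood at 97.4 CPM in hSyn1 and at 84.6 CPM in AiE0387m, both without an astrocyte-like nucleus. Bcan was at 2.38 CPM in AiE0779m and at 0 in AiE0410m, which had none either. Hapln2 was highest in AiE0410m, at 1671 CPM (1646 to 1696), where 32 nuclei were oligodendrocyte-like. AiE0779m had 839.7 CPM with 14 such nuclei, hI56i 807 CPM with 17 and AiE0447h 687 CPM with 22, and 6 vectors were at 0.

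**Figure D5:**
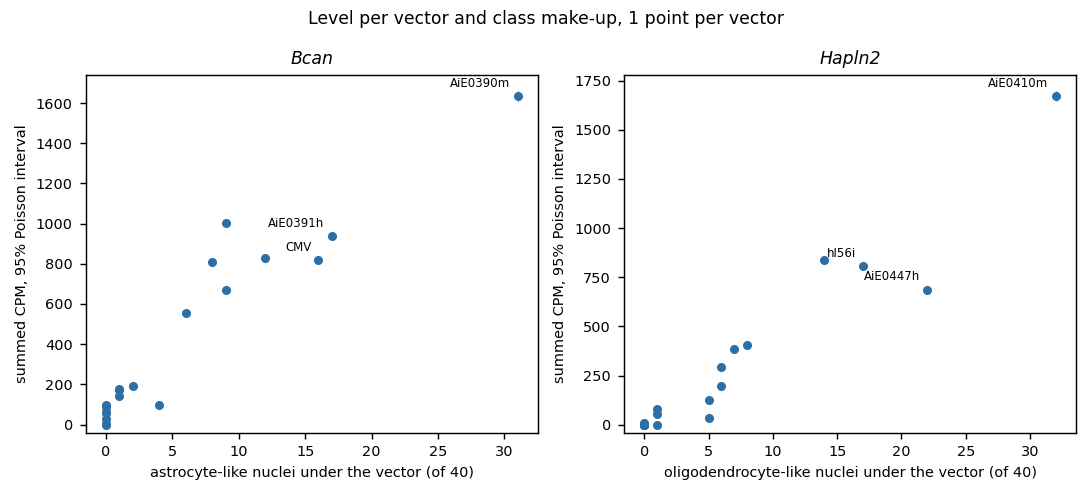
Level of Bcan (left) against the number of astrocyte-like nuclei and of Hapln2 (right) against the number of oligodendrocyte-like nuclei, 1 point per vector (20 vectors of 40 nuclei), with 95% Poisson intervals smaller than the points. The highest points are AiE0390m at 1634 CPM of Bcan and AiE0410m at 1671 CPM of Hapln2; both axes rest on the same nuclei.

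Ncan, Tnr and Hapln4 were read in all 20 vectors. Ncan ran from 9.27 to 206 CPM (median 38.7), highest in CMV, and Tnr from 3.16 to 123 CPM (median 35.9), highest in AiE0401h, where 16 nuclei had a read. Hapln4 ran from 4.14 to 85.3 CPM (median 28.1), highest in AiE0475m, which had 11 Pvalb-like nuclei. Hapln1 was at 0 in AiE0779m and hSyn1 and reached 74.8 CPM in CMV, from 2 nuclei. Vcan reached 61.9 CPM in AiE0779m, also from 2 nuclei, and Acan 6.91 CPM in AiE0600m, from 2 nuclei, with 10 vectors at 0. Tnc was read in 3 vectors.

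The 3 genes most like each member were sought among 13454 genes by Pearson's r of log2(CPM + 1) over 76 sums per class and vector, which share libraries and depth, so the values are descriptions only. Hapln2 was most like Sox10 (r = 0.94), Gm13905 (0.93) and Cldn11 (0.93). Bcan was most like Luzp2 (0.86), Sox6 (0.79) and Grk3 (0.74), and Luzp2 was also first for Hapln1 (0.67). Hapln4 was most like Tmem145 (0.71), Kcnc1 (0.68), which encodes a fast-spiking potassium channel, and Gm13629 (0.68). Tnr was most like Ephx4 (0.77), Srrm3 (0.76) and Mir124a-1hg (0.73). Vcan was nearest to Ppp1r1b (0.63), a striatal marker used to name the classes, and Acan to Cartpt (0.57), Syt2 (0.56), a Pvalb marker used here, and 6330411D24Rik (0.56). Ncan reached only 0.63, with Lgi1, and the likeness of Tnc to Dmp1 (0.83) rests on 3 sums with a Tnc read.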

How the data were processed

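Single flow-sorted nuclei were profiled with SMART-Seq v4, a full-length protocol with neither molecule barcodes nor strand. The deposited table holds raw read counts per gene and nucleus, made with STAR 2.7.2a on mm10 per the submitters' processing notes, while the annotation, counting rule and treatment of introns were not given in the sources used here. Of the 2501 columns, 1701 carried no label of these samples and were not used. The 800 nuclei had 70 to 901264 counts each (median 260170). Symbols matched 32158 of 32285 gene IDs, and 127 had none. The members and lists were chosen with earlier results of these data known.

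Nuclei with at least 500 genes (790) were clustered on log-normalised counts of 2000 variable genes, leaving out 87 matrix genes, with 30 principal components, 15 neighbours and Leiden resolution 1 (scanpy 1.11.5, leidenalg 0.10.2, Python 3.11.15). Clusters were named from marker lists where at least 3 markers were detected and a marker stood among the 10 leading genes. For a GABAergic-like cluster a subclass marker among those genes also served. A subclass name further required that no other subclass list had more markers there. No doublet caller was run, each library being sorted as 1 nucleus, so doublets and RNA carried over from other cells were not tested for. Shares of nuclei with a read were taken at 140000 counts per nucleus (763 nuclei, with 27 too shallow). Poisson intervals (95%) and the floor of 3 counts cover counting error only, since reads without molecule barcodes are not independent molecules.

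For each comparison counts were summed per vector and class (at least 3 nuclei each) and tested with edgeR 4.0.16 (R 4.3.3; TMM, filterByExpr, quasi-likelihood F test) with the vector as a block, adjusting by Benjamini-Hochberg over all genes at 0.05. The pairing comes from the vector label that both sums share, and the numbers in the titles only name nuclei. Dividing a log2 fold change by the square root of its F gave the SE. The sign-flip test ran on log2(CPM + 1) with a pseudocount of 1. The main fit of each comparison was also run on simulated counts without vector effects. The simulation did not mimic sums that rest on 1 nucleus, so it does not bear on calls made on such sums. Alternatives were RLE size factors, no filter, DESeq2 1.42.0, no block, other minimums of genes and nuclei, runs of 8 title numbers as units, classes by marker score, each vector left out, each library series alone, and leaving out runs in which a striatal projection neuron-like nucleus was found. The last was not run for the comparison of striatal projection neuron-like nuclei, which lie in those runs only. All 9 members were reported, with at most 4 other matrix genes per direction and comparison, those past the threshold with the largest fold changes, and the 3 most like genes per member.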

Additional observations from a re-analysis of the deposited data

Results flagged for a closer look

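Of 18 groups of vector sums looked at, 11 had a highest sum set far apart from the next. Each group was a member in a class, over 4 to 10 vectors with at least 3 nuclei of that class. Chance marks about 1 in 20 groups of evenly spread values, but that rate does not hold here: where nearly all sums are at 0, any nucleus with reads sets its vector apart. In 9 of the 11 a single nucleus held every read of the sum. In none of 27 effects compared did every vector of 1 large library series move up and every vector of the other down.

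In oligodendrocyte-like nuclei of AiE0682h, 1 of 7 nuclei gave 61.6 CPM of Bcan, with every other vector at 0, and 65.3 CPM of Ncan, with the next vector at 4.63 CPM. Oligodendrocyte-like nuclei of AiE0779m had 150 CPM of Vcan from 1 of 14 nuclei, against 12.04 CPM in the next vector. Those of AiE0410m had 0.354 CPM of Tnr from 1 of 32 nuclei, with no Tnr read in the other vectors.

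In astrocyte-like nuclei, AiE0600m had 93.4 CPM of Vcan from 1 of 8 nuclei, with the next vector at 43.7 CPM. AiE0391h had 8.11 CPM of Tnr from 1 of 17 astrocyte-like nuclei, with the next at 1.06 CPM.

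Sst-like nuclei held the other 5. AiE0078h had 238 CPM of Bcan from 2 of 6 nuclei, 1 of which held 98.1% of the reads, with the next vector at 122 CPM, and 95.1 CPM of Hapln4 from 1 nucleus, with the next at 41.7 CPM. The hSyn1 vector had 469 CPM of Ncan from 2 of 4 nuclei, 1 of which held 99.5% of the reads, with the next at 80.6 CPM. AiE0401h had 50.0 CPM of Vcan from 1 of 13 nuclei, with the next at 15.2 CPM. AiE0452h had 3.85 CPM of Hapln1 from 1 of 16 nuclei, with no read in the other vectors that had at least 3 Sst-like nuclei. The second Sst-like nucleus with a Hapln1 read lay in a vector with fewer.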

How the results depend on the processing

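Of the recomputed counts of called members, 16 differed from the main count by over 1.5 times. Of the recomputed values of single members, 525 kept their direction and their side of the threshold, 40 lost the call, 8 gained one and 39 turned their sign. Passed in every fit run and in the sign-flip test were Bcan in astrocyte-like against neuronal-like nuclei, Bcan in striatal projection neuron-like against GABAergic-like nuclei and Hapln2 in oligodendrocyte-like against neuronal-like nuclei. The cause was not tested for any of the changes below. DESeq2 called 2 members instead of 0 between Pvalb-like and other GABAergic-like nuclei and 3 instead of 1 between oligodendrocyte-like and astrocyte-like nuclei. For GABAergic-like against glutamatergic-like nuclei 2 members were called with no filter, and 0 with at least 5 nuclei per sum, with runs of 8 as units or without runs holding a striatal projection neuron-like nucleus. For striatal projection neuron-like against GABAergic-like nuclei 1 was called with at least 5 nuclei per sum, by marker score and in library series S40326 alone. For astrocyte-like against neuronal-like nuclei 1 was called within series S40324 and 1 within S40326. For oligodendrocyte-like against neuronal-like nuclei 1 was called within each of these series, and 3 without the runs holding a striatal projection neuron-like nucleus. The class in which each of the 9 members led was the same with a mean over nuclei, and the leading vector was the same for 6 of 9.

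The vector pairs the 2 sums of a comparison. Without this block the members called were 0 of Pvalb-like against other GABAergic-like nuclei, 1 of GABAergic-like against glutamatergic-like, 1 instead of 3 of striatal projection neuron-like against GABAergic-like, 2 instead of 3 of astrocyte-like against neuronal-like, 1 of oligodendrocyte-like against astrocyte-like and 3 instead of 6 of oligodendrocyte-like against neuronal-like nuclei. The unblocked log2 fold changes of Hapln4 and Tnr between GABAergic-like and glutamatergic-like nuclei turned to 0.0862 and 0.132.

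Leaving out each vector in turn gave 0 to 0 members called for Pvalb-like, 1 to 1 for GABAergic-like, 2 to 3 for striatal projection neuron-like, 2 to 3 for astrocyte-like nuclei, 1 to 1 for oligodendrocyte-like against astrocyte-like and 5 to 6 for oligodendrocyte-like against neuronal-like nuclei. In the last, Bcan without AiE0682h and Vcan without AiE0779m no longer passed the filter.

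None of the 39 values that turned passed the threshold. Between GABAergic-like and glutamatergic-like nuclei the Hapln4 log2 fold change became 0.0503 with no filter, 0.0973 with at least 5 nuclei, 0.90 by marker score, 1.55 in series S40326, 0.79 without striatal runs and 0.42 as the mean difference of the sign-flip test, and -0.59 to 0.56 without 1 vector (above 0 in 7 of 12 fits). Tnr became 0.0465 with no filter, 0.15 with at least 5 nuclei, 1.12 in series S40326, 0.81 without striatal runs and 0.076 in the sign-flip test, and -0.42 to 0.40 without 1 vector (above 0 in 7 of 12). Between Pvalb-like and other GABAergic-like nuclei Hapln1 became 0.81 with at least 5 nuclei, 1.02 by marker score and 1.22 by Pvalb reads, and Ncan 0.11 with runs as units and 0.39 by marker score. Between striatal projection neuron-like and GABAergic-like nuclei Tnr became 0.26 in series S40326 and -0.61 to 0.0196 without 1 vector (above 0 without AiE0140h). Between astrocyte-like and neuronal-like nuclei Vcan became -0.0456 with no filter, -0.074 in the sign-flip test and -0.79 to 0.90 without 1 vector (below 0 without AiE0390m and AiE0600m), and Ncan -0.10 in series S40326.

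Counts over all genes moved more: DESeq2 called 723, 1562, 2490, 5140, 2193 and 6578 genes in the order of the comparisons above, and the fit without the block 21, 249, 590, 821, 38 and 1174, where the main fit called 49, 280, 687, 1747, 97 and 4001. RLE size factors moved the median of all genes by over 0.1 only between oligodendrocyte-like and astrocyte-like nuclei (-3.82 against -4.19). Too few vectors remained for series S40324 alone among neurons, and for a minimum of 1000 genes or either series alone between the glial classes. Members read in few nuclei are limited by depth and by the number of nuclei.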
